A study of Mus musculus with 12 samples.

Results

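The genes described here are those whose transcript level in mouse liver differed between Rev KO and wild-type animals in the same direction at both times of day. Rev KO stands for mice in which Nr1d1, the gene of REV-ERBα, was disrupted. The genotype effect was averaged over ZT8 and ZT20 (zeitgeber time, in hours after lights on), with 6 Rev KO livers against 6 wild-type livers and the time point in the model. Of 38926 gene symbols listed, 14488 passed a filter on low counts and were tested, and 919 of them (6.34%) passed an adjusted p of 0.05 in this averaged comparison. These are referred to as called genes. Of the called genes, 754 were shifted to the same side at ZT8 and at ZT20, which is 5.2% of all genes tested. A narrower shared set of genes was formed from these 754, in which the smaller of the changes at ZT8 and ZT20 (log2 scale) was at least 0.5 of the larger. It held 330 genes (2.28% of those tested), 161 higher and 169 lower in Rev KO.

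REV-ERBα is a nuclear receptor of the circadian clock that binds DNA at the REV-ERB/ROR response element (RORE) and represses transcription with its corepressors. The activating ROR receptors bind the same element. In mouse liver the REV-ERBα protein is abundant in the light phase and scarce in the dark phase, and it is known for its control of the clock gene Arntl (BMAL1) and of lipid and bile acid metabolism.

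RNA was sequenced from 12 liver samples of male mice aged 12 weeks, with 3 livers in each of the groups WT ZT8, Rev KO ZT8, WT ZT20 and Rev KO ZT20 (WT, wild type). All animals carried a mixed 129Ola/C57BL6 strain background, were housed in a light-dark cycle and had food at all times, and the Rev KO mice came from heterozygous breeding pairs. The knockout affects the whole body and not the liver alone. Values below are read counts scaled to library size (CPM) of poly(A) RNA from whole tissue, in which fewer cells of a type and less RNA per cell cannot be told apart.

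Between 17641809 and 26060192 reads per liver were counted on genes, and 3 counts then corresponded to 0.115 to 0.170 CPM. The largest component of variation (44.2%) separated the time points. In the component that separated the genotypes (15.2%), wild-type replicate 1 at ZT8 lay between the other wild-type livers and the Rev KO livers. The other wild-type livers at ZT8 stood apart by the acute-phase transcript Saa1, a serum amyloid A protein of the inflammatory response. Its level was 60.8 CPM in wild-type replicate 1 and 4972 and 6489 CPM in replicates 2 and 3 at ZT8, against 21.2 to 96.8 CPM in the other 9 livers. A fit without replicates 2 and 3 kept a single wild-type liver at ZT8, so that a call was harder to reach in it. Only sizes of change from that fit are given below. The part of this spread among wild-type livers in the results was not tested beyond these values.

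Nr1d1 itself was still read in the Rev KO livers. At ZT8 its level was 129, 96.2 and 75.3 CPM in wild-type and 63.0, 71.9 and 80.6 CPM in Rev KO livers. At ZT20 it was 2.28, 1.86 and 2.15 CPM in wild-type and 3.57, 2.96 and 2.09 CPM in Rev KO livers. The genotypes overlapped at both times, and the averaged log2 difference was -0.01 ± 0.18 (SE, adjusted p = 0.985, exact permutation p = 0.915). Which part of the gene the allele lacks is not given in the sources used here, so that counts summed over the whole gene do not check the label. By quantitative PCR the authors reported the mRNA as absent from knockout livers, and by immunohistochemistry the protein as absent. The day to night ratio of the reads counted here was high in both genotypes.

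The effects at ZT8 and at ZT20, which share no samples, pointed the same way in about as many genes as not. Their signs were equal for 50.3% of the 14488 genes, and the Pearson correlation across genes was -0.0407, where genes are not independent of each other. At ZT8 alone 1224 genes (8.45%) passed the threshold, and at ZT20 alone 526 genes (3.63%). Of the 114 genes that passed at both times, 58 (50.9%) moved in the same direction. A total of 852 genes (5.88%) passed the test of the difference between the effects at the 2 times.

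**Figure D1:**
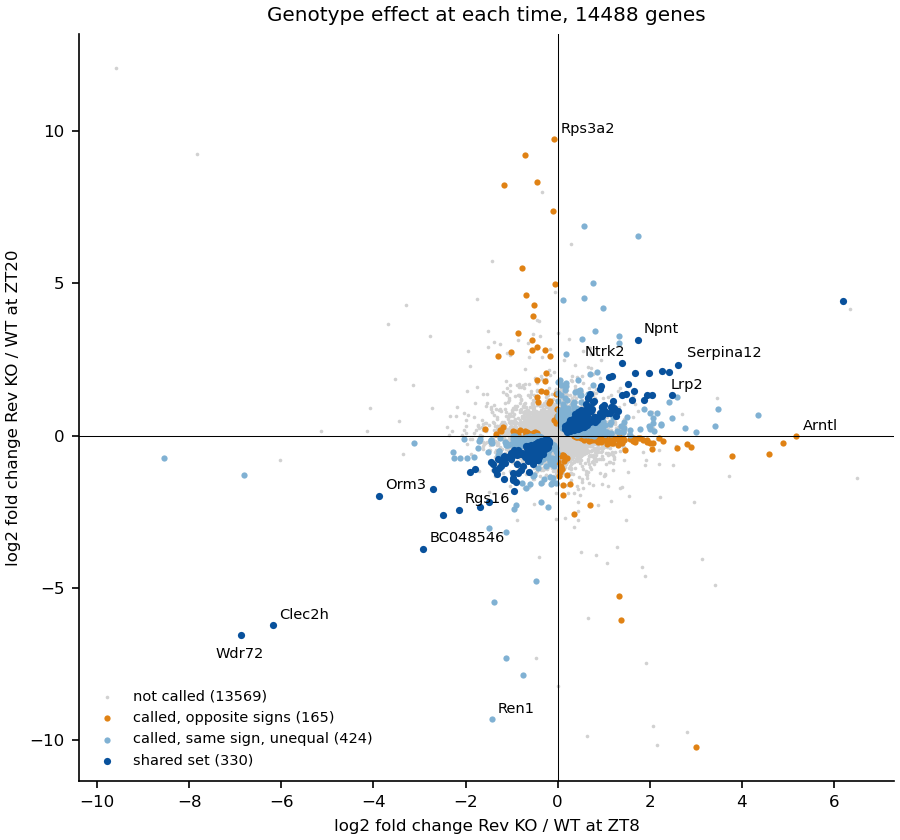
Each point is a tested gene, with the log2 fold change of Rev KO over wild type at ZT8 on the horizontal axis and at ZT20 on the vertical axis. The 330 genes of the shared set (dark blue) lie along the diagonal, the 424 other genes with equal signs (light blue) lie nearer to an axis, and the 165 called genes with opposite signs (orange) lie in the other quadrants.

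Of the 919 called genes, 482 (3.33% of those tested) were higher and 437 (3.02%) were lower in Rev KO. The remaining 165 genes were called on the average although they moved in opposite directions at ZT8 and ZT20. All 165 passed the test of the difference between the times. Opposite signs in a gene called on the average make this nearly certain in advance. The 330 genes of the shared set had a median absolute log2 change of 0.449, a 1.36-fold difference, and 55 of them differed by at least 2-fold. Their median level was 22.1 CPM, against 13.2 CPM for all genes tested. In the shared set 52 genes also passed the threshold at each time alone, 100 at ZT8 only, 36 at ZT20 only and 142 at neither. The change was larger at ZT8 in 196 of the 330 genes. No gene of the shared set passed edgeR's adjusted test of the difference between the times, as the selection on like changes makes likely, and 6 did so at an unadjusted p under 0.05.

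In 228 of the 330 genes (69.1%) the 3 Rev KO livers did not overlap the 3 wild-type livers at ZT8 or at ZT20. Over all genes tested 472 (3.26%) were separated in this way in a single direction, and since the same values chose the set, the higher share in it is a description only. Just outside the limit of the call, Rbl2 had an adjusted p of 0.0502. At the limit of the ratio, Ctps (log2 changes of 0.57 and 0.28) was inside and Rgs4 (-0.77 and -1.55) was outside.

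Among the genes lower in Rev KO, Wdr72 and Clec2h were almost unread in the knockout livers. Wdr72, a WD-repeat protein known from tooth enamel formation, was at 5.77, 5.43 and 3.00 CPM in wild-type livers at ZT8 and at 6.14, 5.17 and 5.64 CPM at ZT20. In Rev KO livers it was at 0.104, 0 and 0 CPM at ZT8 and at 0.042, 0.117 and 0 CPM at ZT20. No Rev KO liver came near a wild-type liver, and 313 reads in wild type at ZT8 stood against 2 in Rev KO, a ratio of 139 (95% exact counting interval 38.2 to 1154). At ZT20 the ratio was 102 (39.3 to 375), and these intervals cover counting error only. The fitted log2 difference was -6.70 ± 0.37 (edgeR, adjusted p = 4.2e-08), and this value depends on the prior count that edgeR adds.

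Clec2h, a C-type lectin-like gene of the natural killer gene region, was lower in Rev KO by a like amount, but with an exception among the wild-type livers. It was at 0.199, 8.32 and 11.9 CPM in wild-type livers at ZT8 and at 4.56, 4.95 and 4.20 CPM at ZT20, while the 6 Rev KO livers ranged from 0.042 to 0.167 CPM. BC048546 showed the same arrangement, with 1.07, 7.32 and 12.2 CPM in wild-type livers at ZT8, 11.3, 12.2 and 7.74 CPM at ZT20, and 0.756 to 0.944 CPM in the 6 Rev KO livers. For both genes wild-type replicate 1 at ZT8 lay close to the knockout level and the other 5 wild-type livers far above it. The log2 difference without that liver was -6.50 for Clec2h and -3.58 for BC048546, against -6.20 ± 1.07 (adjusted p = 0.012) and -3.31 ± 0.54 (adjusted p = 0.0087) with it. Without the other 2 wild-type livers at ZT8 it was -3.69 and -1.99.

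Orm3, which encodes an orosomucoid and is listed with the acute-phase genes, also varied within the wild-type group. It was at 1.19, 10.4 and 13.4 CPM in wild-type and at 0.415, 0.778 and 0.490 CPM in Rev KO livers at ZT8. The levels at ZT20 were 4.28, 2.08 and 1.07 CPM in wild-type and 0.378, 0.545 and 0.978 CPM in Rev KO livers. The genotypes did not overlap at either time, which was a condition for choosing this gene. The highest levels were in the wild-type livers with high Saa1, and without them the log2 difference of -2.92 ± 0.69 became -1.53.

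Rgs16 and Sorl1 were lower in Rev KO in every liver and at both times. Rgs16, a regulator that shortens G protein signalling, was at 108, 81.2 and 52.6 CPM in wild-type and at 13.7, 16.7 and 24.1 CPM in Rev KO livers at ZT8. In the dark phase, at ZT20, it was at 3.95, 4.07 and 2.33 CPM in wild-type and at 0.672, 0.857 and 0.356 CPM in Rev KO livers. The gene thus kept its fall from ZT8 to ZT20 in both genotypes, at levels that differed by a log2 value of -2.29 ± 0.31 (adjusted p = 0.0029) on average. Sorl1, a sorting receptor of the LDL receptor family, was at 8.32, 4.93 and 2.95 CPM in wild-type and at 2.13, 1.22 and 1.71 CPM in Rev KO livers at ZT8. At ZT20 it was at 11.6, 10.2 and 9.98 CPM in wild-type and at 1.64, 2.73 and 1.87 CPM in Rev KO livers, and the averaged log2 difference was -2.01 ± 0.24 (adjusted p = 0.00041).

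The other 6 of the 12 shared genes chosen for the largest decreases lay at low to moderate levels. Adamts7, a secreted metalloprotease, was the most even of them, with 11.2 to 12.2 CPM in wild-type and 4.02 to 5.04 CPM in Rev KO livers at ZT8 and 17.4 to 20.6 against 8.90 to 11.2 CPM at ZT20 (log2 difference -1.17 ± 0.08, adjusted p = 4.7e-07). Serpina7, which encodes thyroxine-binding globulin, a carrier of thyroid hormone in blood, was at 25.2 to 29.8 CPM in wild-type and 6.56 to 14.2 CPM in Rev KO livers at ZT8. At ZT20 it was at 12.2 to 19.9 against 8.06 to 10.4 CPM, with the genotypes separate at both times as the choice of these genes required. Lect1, a cartilage matrix protein gene, fell by 1.55 on the log2 scale, Ptgds, a prostaglandin D2 synthase, by 1.39, and Tmem132e by 1.21. Gm12405 is an antisense gene that overlaps Enho, the gene of the secreted peptide adropin. Reads on the overlap are counted for neither gene (union mode, strand ignored), and the strand of the other reads is not known. Enho itself (log2 difference -0.91 ± 0.13, adjusted p = 0.0028) and the third gene of that place, Gm12406 (-1.29 ± 0.29, adjusted p = 0.014), were in the shared set as well. Whether these 3 are separate observations was not tested. The log2 difference of Gm12405 was -0.936 without the 2 wild-type livers of high Saa1, against -1.17 with them.

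Of the shared genes higher in Rev KO, read at 1 CPM or more and without overlap at either time, Serpina12 had the largest averaged change. Serpina12 encodes vaspin, a secreted serine protease inhibitor. At ZT8 it was at 25.6, 19.7 and 19.2 CPM in wild-type and at 99.9, 129 and 170 CPM in Rev KO livers. In the livers of ZT20 it was at 13.8, 12.5 and 9.08 CPM in wild-type and at 69.4, 58.2 and 48.2 CPM in Rev KO livers. All 6 knockout livers lay above all 6 wild-type livers, by a log2 value of 2.47 ± 0.17 (5.53-fold, adjusted p = 3.4e-05), and the effects at the 2 times, 2.62 and 2.31, did not differ by the interaction test (adjusted p = 0.669).

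Npnt, Lrp2 and Ntrk2 were lifted from a low level. Npnt, a matrix protein that binds integrins, was at 0.239, 0.399 and 0.153 CPM in wild-type and at 0.987, 1.06 and 0.637 CPM in Rev KO livers at ZT8, and at 0.326, 0.133 and 0.403 against 1.47, 2.38 and 3.96 CPM at ZT20. Its wild-type values were near the level of 3 counts, and the sums of reads gave a ratio of 3.37 (95% exact counting interval 1.92 to 6.23) at ZT8 and of 8.99 (5.6 to 15.3) at ZT20. Both intervals cover counting error only. Lrp2 (megalin), an endocytic receptor, was at 0.716, 1.3 and 0.610 CPM in wild-type and at 2.34, 3.83 and 6.37 CPM in Rev KO livers at ZT8, and at 1.3, 1.11 and 0.313 against 6.21, 3.23 and 2.53 CPM at ZT20. The knockout livers varied widely among themselves in both genes. That none overlapped with a wild-type liver of its time was a condition for choosing them. Ntrk2, the receptor of brain-derived neurotrophic factor, was at 4.38, 3.69 and 1.58 against 8.57, 9.83 and 12.9 CPM at ZT8 and at 3.44, 2.74 and 0.984 against 6.17, 11.6 and 12.1 CPM at ZT20. The averaged log2 differences were 2.45 ± 0.34 for Npnt (adjusted p = 0.00049), 2.20 ± 0.39 for Lrp2 (adjusted p = 0.0076) and 1.87 ± 0.33 for Ntrk2 (adjusted p = 0.01). Without wild-type replicates 2 and 3 at ZT8, the log2 difference was 2.34 for Lrp2 and 1.66 for Ntrk2.

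Car5b and Acnat2 are metabolic enzymes of this group. Car5b, a mitochondrial carbonic anhydrase, was at 4.78, 4.48 and 3.76 CPM in wild-type and at 10.8, 9.28 and 8.91 CPM in Rev KO livers at ZT8. At ZT20 it was at 2.74, 3.14 and 2.77 against 5.96, 5.77 and 4.93 CPM, close to 2.07-fold on average with little spread (log2 difference 1.05 ± 0.10, adjusted p = 1.4e-05). Acnat2, of the acyl-CoA:amino acid N-acyltransferase family, was at 2.23, 3.39 and 4.37 against 9.61, 14.2 and 17.2 CPM at ZT8 and at 8.19, 7.08 and 4.47 against 17.1, 13.7 and 19.1 CPM at ZT20 (1.70 ± 0.21, adjusted p = 0.00078). Lrtm1 (1.53), the secreted protein gene Crispld2 (1.16), the antisense gene Gm13449 (1.06) and the cytochrome gene Cyp3a59 (1.06) also rose on the log2 scale. Without the 2 wild-type livers of high Saa1, Lrtm1 rose by 1.4 and Cyp3a59 by 0.932. Adh6-ps1 (1.53) is annotated as a pseudogene and C4a (1.29) has the close copy C4b, so that their reads may be shared with related genes, and their values are uncertain.

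**Figure D2:**
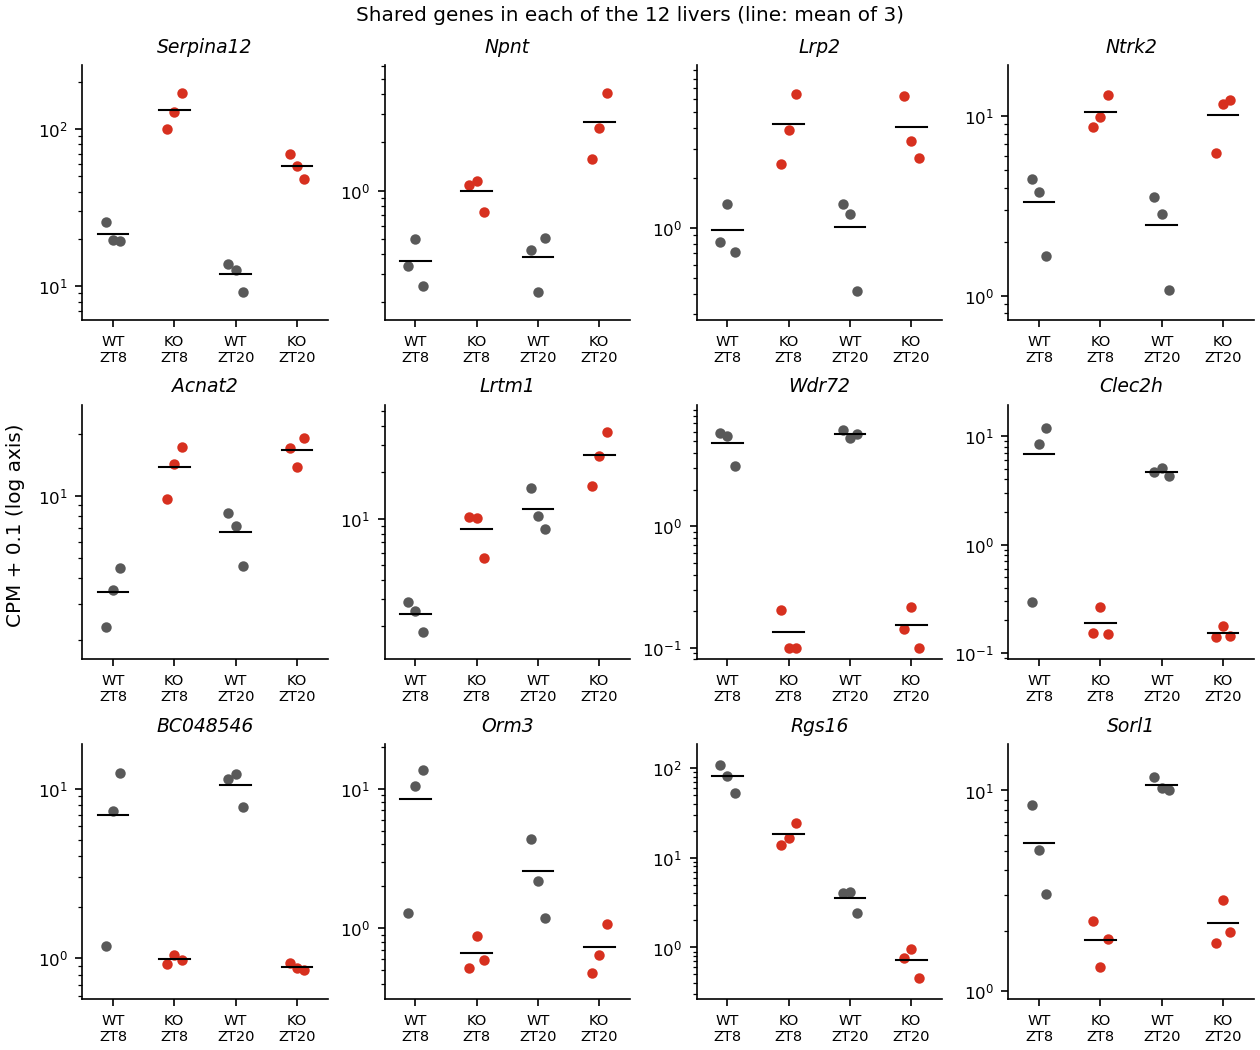
Each panel shows a gene of the shared set in the 12 livers, as CPM plus 0.1 on a logarithmic axis, with grey points for wild type, red points for Rev KO and a line at the mean of 3. In the first 6 panels (Serpina12 to Lrtm1) the red points lie above the grey points of the same time, and in the last 6 (Wdr72 to Sorl1) below them, with wild-type replicate 1 at ZT8 close to the red points in Clec2h and BC048546. The genes were chosen from those without overlap at either time.

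A part of the shared set came into view only through the average. Of the 142 genes that passed the threshold at neither time alone, the strongest were Pnpla7, Rbbp8, Ntn4, Pik3r3, Ugt2b5 and Sspo. Pnpla7, a lysophospholipase, was at 159, 151 and 131 CPM in wild-type and at 174, 176 and 192 CPM in Rev KO livers at ZT8, and at 136, 128 and 128 against 182, 170 and 145 CPM at ZT20. The knockout livers were higher at each time with effects of 0.30 and 0.34, and the average of 0.32 ± 0.07 had an adjusted p of 0.0083. Pik3r3, a regulatory subunit of phosphoinositide 3-kinase, was at 3.05 to 4.97 against 5.30 to 6.32 CPM at ZT8 and at 3.49 to 5.02 against 6.55 to 7.69 CPM at ZT20 (0.64 ± 0.13, adjusted p = 0.01). Ntn4, the matrix protein netrin 4, was lower in Rev KO, at 10.2 to 11.2 against 7.20 to 7.84 CPM at ZT8 and at 11.1 to 14.2 against 6.55 to 10.8 CPM at ZT20 (-0.52 ± 0.11, adjusted p = 0.0097). The averages were 0.45 ± 0.09 for Rbbp8, a DNA repair factor, and -0.71 ± 0.15 for Sspo. When wild-type replicates 2 and 3 at ZT8 were left out, the signs of all 6 stayed as they were. The values were then 0.265 for Pnpla7, 0.344 for Rbbp8, -0.489 for Ntn4, 0.435 for Pik3r3, 0.233 for Ugt2b5 and -0.577 for Sspo.

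Several called genes with the largest averages were not shared, since a single time carried them. Ctse, the protease cathepsin E, was at 14.5, 16.9 and 16.9 against 8.26, 9.17 and 11.0 CPM at ZT8, but at 44.2, 40.0 and 35.1 against 0.126, 0.312 and 0.0445 CPM at ZT20. Ren1, renin, was at 5.61, 3.99 and 1.63 against 1.45, 1.11 and 1.62 CPM at ZT8 and at 12.3, 11.9 and 13.3 against 0.042, 0 and 0 CPM at ZT20, where 830 wild-type reads stood against 1 (ratio 899, 95% exact counting interval 161 to 35550). Both were lower in Rev KO at both times, with a far larger difference at ZT20. Rps3a2, a processed pseudogene with close copies, was at 4.02 to 4.78 CPM in all livers at ZT8, at 0 CPM in the 3 wild-type livers at ZT20 and at 5.08, 4.21 and 5.42 CPM in the Rev KO livers at ZT20. The ratio at ZT20 was 108 when 3 counts over the group are taken as the floor, and the 95% exact counting interval began at 87.4. The intervals of Ren1 and Rps3a2 cover counting error only. Saa2 was at 13.6, 4849 and 6137 CPM in wild-type livers at ZT8 and at 4.40 to 17.2 CPM in the other 9 livers, so that its average of -4.64 ± 1.12 rested on the same 2 wild-type livers as Saa1.

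The drug-metabolizing enzymes held a larger share of shared genes than the other lists. Conjugating enzymes attach glutathione, glucuronic acid or sulfate to foreign compounds and hormones. Of 31 tested, 8 rose and 1 fell (29.0% called, against 6.34% of all genes tested). Of the 31, 8 (25.8%) belonged to the shared set, against 2.28% of all genes. The median log2 difference of the 31 was 0.194, against 0.00534 for all genes tested. The Gstm genes, which encode mu-class glutathione transferases, stood out within the list, since all 5 tested (Gstm1, Gstm2, Gstm3, Gstm4 and Gstm6) rose. They lie side by side on chromosome 3 between 107938847 and 108044894 (mm10), a stretch in which these 5 were the only genes tested.

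Gstm2 was at 35.1, 27.5 and 24.1 CPM in wild-type and at 53.9, 64.0 and 72.0 CPM in Rev KO livers at ZT8, and at 33.7, 32.7 and 28.9 against 57.2, 52.9 and 49.5 CPM at ZT20. Gstm3 was at 43.6, 28.3 and 19.9 against 54.8, 58.9 and 64.7 CPM at ZT8 and at 38.1, 38 and 37.5 against 83.6, 75.7 and 61.6 CPM at ZT20. The averaged log2 differences were 0.94 ± 0.09 for Gstm2 (adjusted p = 5e-05) and 0.96 ± 0.17 for Gstm3 (adjusted p = 0.0095). Gstm6 rose by 0.64, Gstm4 by 0.53 and Gstm1, the most abundant at 453 to 1125 CPM, by 0.50 on the log2 scale. In every Gstm gene the highest wild-type value at ZT8 was that of replicate 1, and in Gstm4 this liver overlapped with the knockout livers. The members are close in sequence, and only reads placed at a single site were counted, so that the split among them is uncertain.

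Of the other conjugating enzymes, Ugt2b5, a glucuronosyltransferase, was at 736, 597 and 555 against 807, 779 and 772 CPM at ZT8 and at 486, 518 and 554 against 698, 642 and 676 CPM at ZT20 (0.35 ± 0.07, adjusted p = 0.011). Sult5a1, a sulfotransferase, rose by 0.62 and Ugt2a3 by 0.25, the latter outside the shared set. Sult1a1, a phenol sulfotransferase, moved the other way, from 162, 162 and 166 CPM to 113, 130 and 113 CPM at ZT8 and from 252, 264 and 252 CPM to 110, 147 and 184 CPM at ZT20 (-0.63 ± 0.10, adjusted p = 0.0012). Its knockout livers lay below every wild-type liver of the same time.

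Of 29 cytochromes P450 of families 1 to 3 and their regulators tested, 5 rose and 3 fell, and 5 (17.2%) were in the shared set. The called share was 27.6%, and all genes tested gave 6.34% called and 2.28% shared. The median of the 29 was 0.0867. Cyp2a5, the coumarin hydroxylase, was at 1025, 844 and 744 CPM in wild-type and at 1401, 1703 and 1402 CPM in Rev KO livers at ZT8, and at 426, 389 and 481 against 585, 660 and 748 CPM at ZT20. The log2 difference was 0.79 at ZT8 and 0.62 at ZT20, with an average of 0.70 ± 0.10 (adjusted p = 0.00041). Cyp3a25 rose by 0.43 (0.285 without the 2 wild-type livers of high Saa1), while Cyp2c38 (-1.16 ± 0.23, adjusted p = 0.018), Cyp2c39 (-0.76 ± 0.17, adjusted p = 0.029) and Cyp3a13 (-0.25 ± 0.06, adjusted p = 0.027) fell. Cyp2c38 and Cyp2c39 are neighbours on chromosome 19, where the Cyp2c genes are close copies of each other. Cyp2c55, Cyp2c70 and Cyp2c50 rose on the average but more at ZT8, and were outside the shared set.

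**Figure D3:**
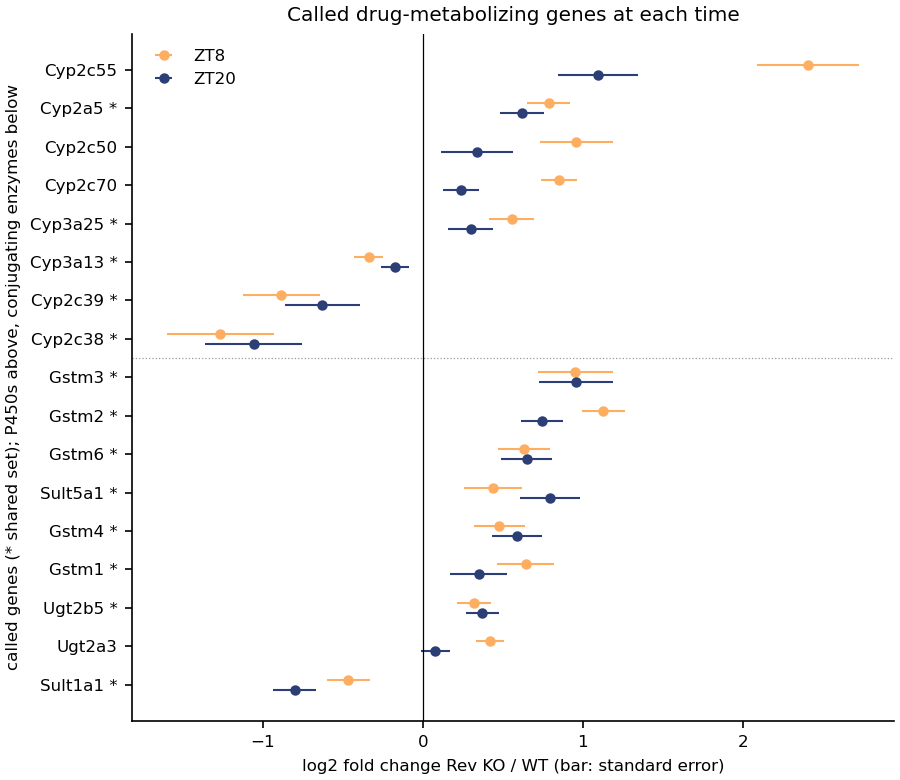
The log2 fold change of Rev KO over wild type is plotted for each called drug-metabolizing gene at ZT8 (orange) and ZT20 (blue), with bars for the standard error, cytochromes P450 above the dotted line and conjugating enzymes below it, and shared genes marked with an asterisk. The Gstm genes lie right of 0 at both times, and Sult1a1, Cyp2c38, Cyp2c39 and Cyp3a13 lie left of it at both times.

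The clock genes Arntl, Nfil3, Clock and Cry1, which REV-ERBα represses through the RORE, were called but were not shared. Of the 7 clock activators and RORE-regulated genes, 5 rose and 1 fell in the averaged comparison (85.7% called, against 6.34% of all genes tested). The median effect was 2.00 at ZT8 and -0.0413 at ZT20. Arntl was at 0.796, 0.448 and 0.712 CPM in wild-type and at 24.3, 25.7 and 22.7 CPM in Rev KO livers at ZT8, whereas at ZT20 it was at 44.5, 45.2 and 43.0 against 45.1, 44.8 and 41.1 CPM. The genotypes were far apart at ZT8 and overlapped at ZT20. Nfil3, Clock and Cry1 were also higher in all Rev KO livers at ZT8, with interaction values of 2.48, 1.36 and 2.24. At ZT20 the genotypes overlapped in Clock, whereas the Rev KO livers lay below the wild-type livers in Nfil3 and Cry1, where the differences (-0.19 and -0.24) did not pass the test.

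Of the 9 E-box clock repressors and outputs tested, which BMAL1 and CLOCK drive, edgeR called Cry2 alone and DESeq2 called 2 genes, both lower. The share called by edgeR was 11.1%, against 6.34% of all genes tested. Cry2 was at 62.3, 64.2 and 70.9 against 50.5, 54.7 and 62.5 CPM at ZT8 and at 65.7, 63.1 and 62.1 against 51.8, 53.5 and 52.2 CPM at ZT20 (-0.26 ± 0.06, adjusted p = 0.013, exact permutation p = 0.01 where 0.005 is the smallest possible). The log2 difference was -0.216 without wild-type replicates 2 and 3 at ZT8. The genotypes overlapped at ZT8 by a single pair of livers and were separate at ZT20. The median of the list was -0.152.

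Promoters were read for the RORE half-sites TAGGTCA and TGGGTCA on either strand, in the RefSeq promoter table (GRCm38.p6), which spans 250 bases before to 50 bases after a gene's start. Of the shared genes that were higher in Rev KO, 10 of 132 with a promoter in the table held a half-site (7.58%), against 684 of 10559 for all genes tested (6.48%) and 2120 of 32851 promoters in the whole table (6.45%). Of the shared genes that were lower, 4 of 125 held a half-site (3.2%). Among called genes outside the shared set the shares were 24 of 234 (10.3%) for higher and 14 of 198 (7.07%) for lower genes. The highest share was thus found outside the shared set, and these counts carry no test. The half-sites of Arntl, as the known target, and of some shared genes are shown with the half-site in capitals and 10 bases to each side, 5′ to 3′ on the strand that reads it, first the higher genes and then the lower ones:
Arntl: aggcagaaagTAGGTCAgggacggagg
Mad2l1, distal: gggccgcttcTAGGTCAcctcatccga
Mad2l1, proximal: acggaccttgTAGGTCAccaggacctg
Fbxo40: gtgctggggcTAGGTCAgagctcaaat
Mcm7: cctagtccctTGGGTCAcgtattgaat
Tmem19: aagggtggtgTGGGTCActaaaacctg
Ngef: aggggccgttTGGGTCAtgtcaacctg
Ocln: ttcaggtgaaTGGGTCAccgagggagg

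The stretch of Arntl lies at chr7:113207531-113207557 on the plus strand, just after the start of the transcript. That of Mcm7, a subunit of the replicative helicase, lies at chr5:138171418-138171444, and Mcm7 was at 6.45, 6.28 and 5.44 against 8.98, 10.0 and 10.1 CPM at ZT8 and at 7.21, 6.68 and 7.02 against 11.3, 9.00 and 8.76 CPM at ZT20 (0.58 ± 0.09, adjusted p = 0.00093). Tmem19 (chr10:115362692-115362718) was higher in all 6 Rev KO livers, at 190 to 215 against 149 to 165 CPM (0.32 ± 0.05). The half-sites of Mad2l1, a spindle checkpoint gene with 2 of them, and of Fbxo40 lie 105 to 156 bases before the start, and these genes rose by 0.76 and 1.56 on the log2 scale. Ocln, the tight junction protein occludin, and Ngef fell by 0.60 and 0.30. These genes were shown for the half-site after their values were known, and a match of letters does not show that a receptor binds there.

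Other metabolic lists held few shared genes. In amino acid, methionine and tryptophan metabolism 4 of 26 genes rose and 1 fell (19.2% called, against 6.34% of all genes tested). Aadat, an aminotransferase of the kynurenine pathway, was at 166, 171 and 176 against 224, 264 and 246 CPM at ZT8 and at 95.3, 97.8 and 90.8 against 193, 152 and 167 CPM at ZT20, with knockout livers higher throughout (0.68 ± 0.06, adjusted p = 9.5e-06). Cbs, which makes cystathionine from homocysteine, rose by 0.49 and was shared too. Ahcy, which splits S-adenosylhomocysteine, was lower at both times, but at ZT20 by far more (from 193, 179 and 181 to 36.2, 39.2 and 46.9 CPM). Ddc and Kynu rose on the average with the larger change at ZT8.

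None of the 4 called genes in the lists for cholesterol synthesis (Insig2, of 24), fatty acid synthesis (Elovl3, of 19), bile acids (Cyp7b1, of 19) and glucose (Ppargc1a, of 19) was shared. The same holds for both called genes of fatty acid oxidation (Pdk4 and Cpt2, of 21). The shares of these lists called by edgeR were 4.17% to 9.52%, against 6.34% of all genes tested. In the fatty acid oxidation list DESeq2 called 2 genes higher and 4 lower, with 1164 of 15545 genes called in all. Insig2, Elovl3 and Pdk4 were separate between genotypes at ZT8 and overlapped at ZT20. Of 20 lipid droplet and lipoprotein genes (15.0% called), Lipc rose and Apoc2 and Lipg fell on the average, where DESeq2 called 6 higher and 3 lower. Apoc2 had log2 effects of 0.20 at ZT8 and -0.73 at ZT20. Lipg, endothelial lipase, was the shared one, at 22.6, 26.1 and 22.8 against 7.53, 11.7 and 18.1 CPM at ZT8 and at 10.6, 7.96 and 6.84 against 4.62, 5.22 and 6.76 CPM at ZT20 (-0.77 ± 0.20, adjusted p = 0.049). This call was lost in 14 of 19 alternatives. Of 17 male-biased liver genes 4 (23.5%) rose on the average, namely Mup20, Elovl3, Cyp7b1 and Hsd3b5. Mup20 was lower in Rev KO at ZT8 (log2 effect -0.45) and higher at ZT20 (2.90). Hsd3b5, a steroid-metabolizing enzyme, was the shared one with a log2 change of 0.30. Without the 2 wild-type livers of high Saa1 this change was 0.251. Of 11 female-biased genes tested, Cyp2c69 rose and Acot3 fell (18.2% called), both outside the shared set.

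**Figure D4:**
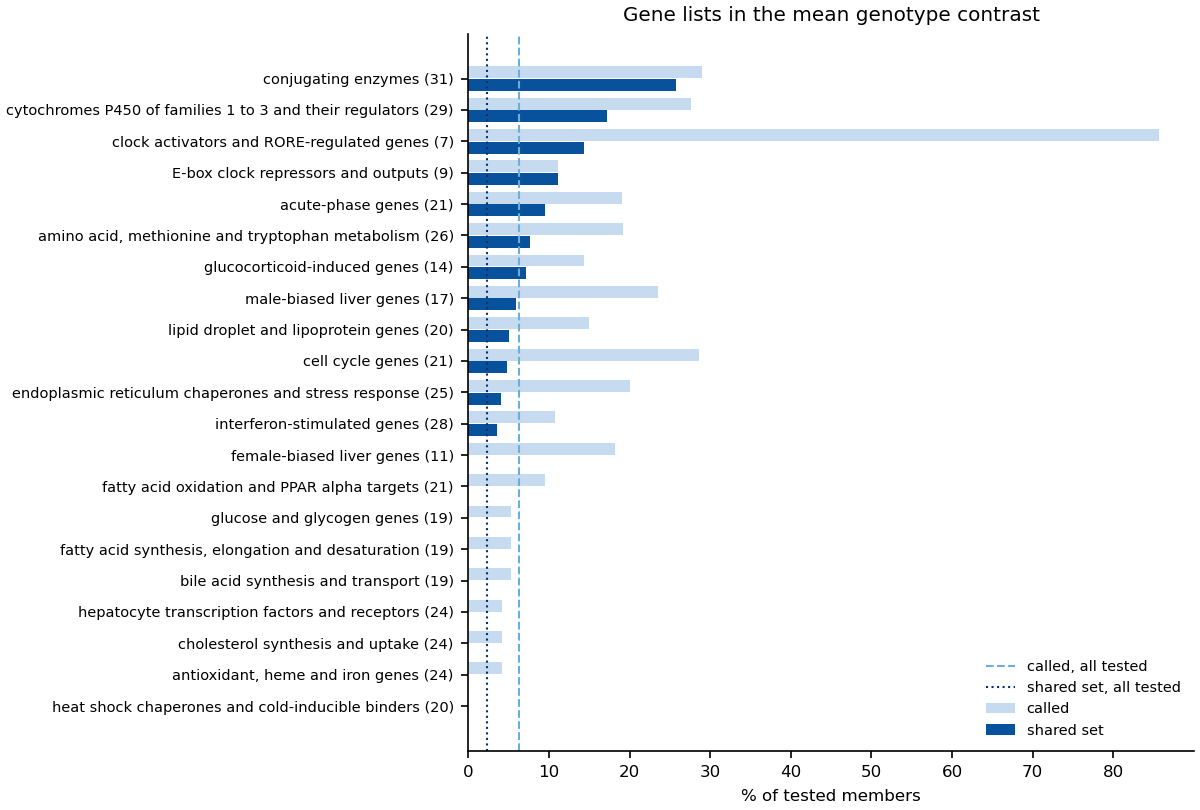
For each gene list, bars give the percentage of its tested members (number in parentheses) that were called in the averaged comparison (light) and that belonged to the shared set (dark), with dashed and dotted lines at 6.34% and 2.28% for all genes tested. The conjugating enzymes have the longest dark bar (25.8%) and the clock activators have the longest light bar (85.7%).

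In the lists tied to hormones, stress and inflammation, the shared members mostly fell. Of 14 glucocorticoid-induced genes, Cdkn1a rose on the average and Nfkbia fell (14.3% called, against 6.34% of all genes tested). Cdkn1a had log2 effects of 3.78 at ZT8 and -0.66 at ZT20. The list had a median of -0.209. Nfkbia, the inhibitor of NF-κB, was at 38.4, 38.8 and 37.1 against 25.8, 25.1 and 28.4 CPM at ZT8 and at 28.0, 29.5 and 38.7 against 24.6, 24.0 and 24.7 CPM at ZT20, lower in every Rev KO liver of its time (-0.46 ± 0.07, adjusted p = 0.0012). Of 25 endoplasmic reticulum and stress response genes, Nupr1, Atf5, Ddit3 and Asns rose on the average with effects that differed between the times, and Trib3 (-0.46 ± 0.13, adjusted p = 0.046) fell and was shared. Among 20 heat shock chaperones and cold-inducible binders tested, edgeR and DESeq2 each called 0 genes and 3 had an unadjusted p under 0.05, with Hspb1 having the lowest adjusted p (0.094).

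Of 21 acute-phase genes, 4 were called (19.0%, against 6.34% of all genes tested) and all fell. DESeq2 called 0 higher and 9 lower in this list. The median of the list was -0.564. Saa4, a constitutive serum amyloid gene, was at 538, 504 and 476 against 340, 361 and 290 CPM at ZT8 and at 449, 449 and 435 against 253, 299 and 383 CPM at ZT20. It was lower in all Rev KO livers without high values in wild-type replicates 2 and 3. Its log2 difference of -0.56 ± 0.09 (adjusted p = 0.0013) was -0.608 without these livers. The differences of Saa1, Saa2 and Orm3 came to -1.05, -0.609 and -1.53 without them, from -4.04, -4.64 and -2.92.

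Of 28 interferon-stimulated genes, Ifi27, Psmb9 and B2m rose (10.7% called, against 6.34% of all genes tested). DESeq2 called 7 higher and 0 lower. In this list 25 of 28 had an averaged value above 0, with a median of 0.316. Ifi27 was shared, at 54.1, 63.7 and 61.8 against 96.9, 83.5 and 78.9 CPM at ZT8 and at 54.1, 50.9 and 65.3 against 126, 91.1 and 70.8 CPM at ZT20 (0.65 ± 0.13, adjusted p = 0.016). Without wild-type replicates 2 and 3 at ZT8 the log2 differences of Ifi27, Psmb9 and B2m were 0.718, 0.348 and 0.207. With them they were 0.645, 0.313 and 0.235. On the average 5 of 21 cell cycle genes rose (Cdkn1a, Mcm6, Rrm2, Mki67 and Mcm2) and Wee1 fell, with a median of 0.440. The called share of this list was 28.6%. Mki67, a marker of dividing cells, was shared at 3.30, 3.29 and 2.64 against 3.17, 4.33 and 7.15 CPM at ZT8 and at 1.54, 1.68 and 2.55 against 5.67, 4.87 and 3.11 CPM at ZT20, with an overlap at ZT8 (0.95 ± 0.21, adjusted p = 0.018). The log2 differences of Mcm6 and Rrm2 were 1.7 and 0.817 without the same 2 wild-type livers, against 1.84 and 0.959 with them. In the antioxidant, heme and iron list Txnrd1 was the called gene among 24. In the hepatocyte transcription factors Thra was the called gene among 24. Each list was thus called at 4.17%, and neither gene was shared.

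The markers of liver cell types gave the following levels. The summed CPM of 10 hepatocyte markers was 69800 to 104000 at ZT8 and 101000 to 121000 at ZT20, and the ranges of the genotypes overlapped at ZT8 but not at ZT20 (110000 to 121000 in wild-type and 101000 to 108000 in Rev KO livers). For 11 Kupffer cell markers it was 460 to 712 in wild-type and 417 to 491 in Rev KO livers at ZT8, and 402 to 500 against 455 to 559 at ZT20. Both defining lists were thus well read in all livers. The sums for endothelial (8 genes, 372 to 452) and stellate markers (9 genes, 279 to 384) overlapped between genotypes at both times, and those of lymphocyte markers (4 of 10 tested) did not exceed 3.18 CPM. The erythroid sum (6 of 9 tested) ranged from 112 to 288 and the neutrophil sum (2 of 7 tested) from 0.415 to 6.35 CPM.

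EdgeR called 0 genes in the hepatocyte, Kupffer, endothelial, lymphocyte, neutrophil and erythroid lists, with 2, 0, 1, 0, 0 and 0 at an unadjusted p under 0.05. DESeq2 called 2 hepatocyte markers and none in the other 5 lists. In the stellate list Lrat, which stores retinol as esters, was lower and shared (-0.46 ± 0.11, adjusted p = 0.027), at 23.6, 22.4 and 32.5 against 23.2, 17.8 and 14.7 CPM at ZT8 and at 31.1, 30.4 and 29.2 against 22.4, 23.8 and 21.2 CPM at ZT20. The list as a whole did not go with it, since 6 of its 9 genes had an averaged value above 0, with a median of 0.0913. Sox9, a cholangiocyte marker, rose by 0.90 with a summed list of 37.9 to 94.7 CPM in wild type and 39.7 to 69.8 CPM in Rev KO, and Cela1, listed with the exocrine pancreas, rose by 0.74. Only 2 of 10 pancreas markers were read well enough to be tested, with a sum of 26.6 to 29.5 CPM in wild-type and 44.9 to 60.6 CPM in Rev KO livers at ZT8 and an overlap at ZT20 (18.3 to 30.3 against 29.5 to 40.5 CPM). Without wild-type replicates 2 and 3 at ZT8 the log2 differences of Lrat and Cela1 were -0.386 and 0.744. The part of other cells in these values was not tested.

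The position of the genes was not used in choosing them. Of the 14488 genes tested, 14310 (98.8%) were placed on the mm10 annotation, and 325 of the 330 shared genes. Chromosome 11, which carries Nr1d1 at 98767932 to 98775333 on the minus strand, held 31 of them among 1200 tested genes (2.58%). Within 20 Mb of Nr1d1 there were 22 of 474 (4.64%), 16 lower and 6 higher, while the rest of chromosome 11 held 9 of 725 (1.24%) and the other chromosomes 294 of 13110 (2.24%). The share was 4.66% within 5 Mb. The chromosome with the highest share was 14 (3.58%) and X held 1.01%. Effects of the missing gene and of the strain of origin of the segment around the targeted allele cannot be told apart here, since the knockout livers carry both.

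Among the 9 shared genes within 5 Mb, Gosr2 was the clearest. Gosr2, which encodes a Golgi SNARE protein for vesicle fusion, lies at chr11:103676849-103697898. It was at 71.8, 74.5 and 76.5 against 106, 109 and 97.7 CPM at ZT8 and at 83.6, 81.8 and 77.0 against 125, 106 and 103 CPM at ZT20, without any overlap (0.48 ± 0.06, adjusted p = 0.00012, exact permutation p = 0.005, the smallest possible). Cnp (0.36) and Ifi35 (0.41) rose as well, and Samd14 (-0.69), its neighbour Pdk2 (-0.28), Msl1 (-0.18), the histone methyltransferase gene Ezh1 (-0.23), Cd300lg (-0.35) and Arhgap27 (-0.53) fell. Without the 2 wild-type livers of high Saa1, the log2 differences of Cnp, Ifi35 and Samd14 were 0.262, 0.373 and -0.723. Those of Ezh1, Cd300lg and Arhgap27 were -0.213, -0.353 and -0.446. Pdk2, a pyruvate dehydrogenase kinase, was at 126, 129 and 118 against 96.1, 92.1 and 102 CPM at ZT8 and at 103, 107 and 109 against 81.5, 96.4 and 103 CPM at ZT20, where the genotypes met at a single liver of each group. Thra, the thyroid hormone receptor gene that overlaps the end of Nr1d1 on the other strand, was at 17.5, 16.2 and 15.6 against 8.26, 6.33 and 5.97 CPM at ZT8 and at 15.4, 14.9 and 16 against 8.69, 12.0 and 12.4 CPM at ZT20. It was lower in Rev KO at both times (-0.87 ± 0.10, adjusted p = 6.9e-05) but more so at ZT8 and was not in the shared set. Reads where Thra and Nr1d1 overlap are counted for neither gene, since strand was ignored.

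**Figure D5:**
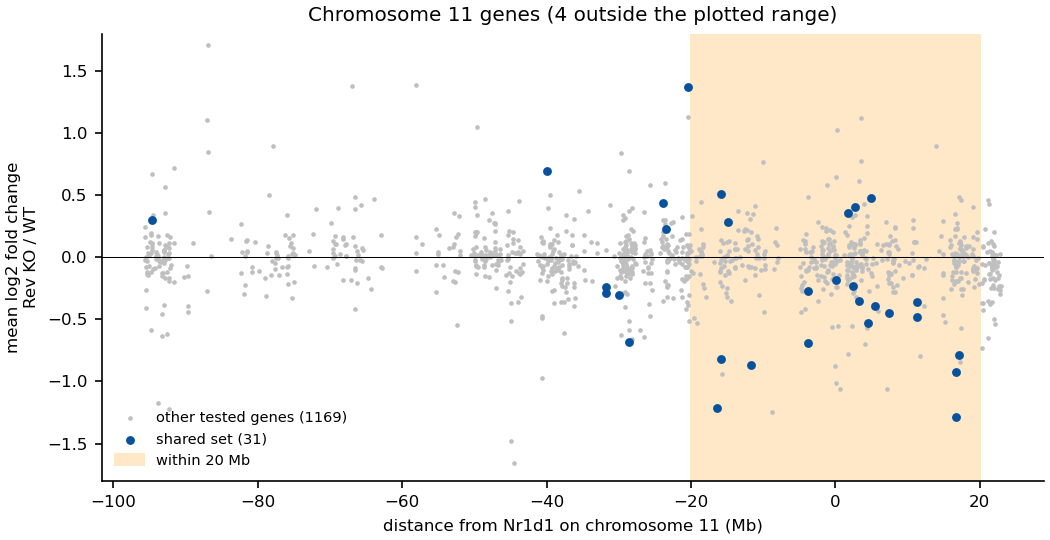
The averaged log2 fold change of the tested genes of chromosome 11 is plotted against their distance from Nr1d1 in Mb, with shared genes in blue and the 20 Mb to each side shaded. Of the 22 shared genes in the shaded stretch 16 lie below 0, and 4 genes of the chromosome lie outside the plotted range, Gm15698 of the shared set among them.

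Shared genes had another shared gene within 1 Mb in 36.0% of cases, close to the 35.8% of the other genes, but at least 2 such neighbours in 15.1% against 9.86%. Apart from the Gstm genes on chromosome 3, the groups with the most shared genes were on chromosomes 12 (6 genes) and 19 (5 of 10 tested). On chromosome 12, between 102568582 and 104346144, 6 of 30 tested genes were shared, namely Itpk1, Ifi27, Serpina12, Serpina5 and Serpina3k, which rose, and Serpina6. Serpina6 encodes the corticosteroid-binding globulin of blood, and it was at 309.7, 391 and 461 against 234, 251 and 259 CPM at ZT8 and at 248, 246 and 224 against 105, 134 and 168 CPM at ZT20. Adjacent serine protease inhibitor genes thus moved in opposite directions, Serpina6 by -0.73 ± 0.11 (adjusted p = 0.0021).

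On chromosome 6, between 128662385 and 129623864, Clec2h, Clec7a and Klrk1 were the 3 shared genes of 11 tested, and all were lower in Rev KO. Clec7a, the β-glucan receptor dectin-1, was at 2.67, 4.58 and 6.76 against 2.49, 2.00 and 2.55 CPM at ZT8 and at 4.74, 6.10 and 3.85 against 2.14, 2.34 and 1.82 CPM at ZT20 (-1.10 ± 0.20, adjusted p = 0.0051). As in Clec2h, the lowest wild-type liver was replicate 1 at ZT8. On chromosome 7 the integrin genes Itgal and Itgam, of leukocytes, fell by 0.44 and 1.02 with Sult1a1 and Ypel3 in the same 68 tested genes. By kind of gene, 302 of 12683 protein-coding genes (2.38%), 14 of 642 long non-coding genes (2.18%) and 9 of 925 pseudogenes (0.973%) were shared.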

How the data were processed

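Poly(A) RNA of 12 livers was sequenced for up to 75 bases. The authors mapped reads to mm10 with TopHat, kept uniquely mapped reads and counted them with HTSeq-count, summed by gene symbol (minimum quality 10, union mode, strand ignored). The deposited values are raw counts. The TopHat, HTSeq and gene annotation versions are not given in the sources used here. Alignments to several places amounted to 1.24 to 3.28 per counted read, and the 5 summary lines were left out of library sizes and tests. The lines for reads on no gene or on several genes held 11.9% to 13.5% of such reads and counted reads together.

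Genes were filtered with filterByExpr, scaled with TMM and fitted with edgeR 4.0.16 (robust quasi-likelihood, R 4.3.3) as 4 group means over all 12 livers. The contrasts were the mean genotype effect, the effect at each time and their difference, with Benjamini-Hochberg adjustment over all 14488 genes at 0.05. SE is the size of the log2 change divided by the root of F. CPM values use TMM-scaled library sizes. Single genes were checked with a two-sided exact permutation test of log2(CPM + 0.1) within times (400 arrangements, smallest p 0.005). Ratios of few reads have exact 95% intervals on reads summed over the livers of a group, which leave out the spread between livers. On simulated counts for this contrast, 63 of 100 genes changed 1.5-fold alike at both times and 97 of 100 changed 3-fold entered the shared set, with 8 of 13878 unchanged genes. The simulation had no effect of time, a spread set by expression level alone and no livers that stood apart. Its shares therefore do not measure the error in the livers studied.

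The members, 21 gene lists and 9 marker lists were chosen with earlier results of these data known. Genes named are Nr1d1; the 12 higher and 12 lower shared genes of largest change (mean of at least 1 CPM, genotypes not overlapping at either time); the 6 strongest shared genes called at neither time; the 4 largest called genes outside the set; shared genes within 5 Mb of Nr1d1; and up to 4 called members of each list. Others were named for a position, half-site or list after their values were seen. The labels number the replicates without saying that each is a separate animal, and p-values then measure the spread between these samples, which may be technical. Replicates of a group differed by more than sampling noise (a chi-square of at least 7.53 per degree of freedom). Numbers did not pair the livers. Alternatives were DESeq2 1.42.0, its size factors, other filters, an additive model, a replicate block, other thresholds and leaving out livers. The results of a few genes are not reported here.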

Additional observations from a re-analysis of the deposited data

Results flagged for a closer look

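The effect of genotype differed between ZT8 and ZT20 in 26 of the genes named, by edgeR's test of the difference itself (adjusted p under 0.05). The values below are the log2 effect at ZT8 minus that at ZT20. Among genes outside the shared set with a large average, it was 7.88 for Ren1, -9.80 for Rps3a2 and 7.09 for Ctse. Among clock genes it was 5.2 for Arntl, 2.48 for Nfil3, 1.36 for Clock and 2.24 for Cry1.

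In metabolism the difference was 1.68 for Insig2, 1.72 for Elovl3, 1.57 for Pdk4, 0.635 for Lipc and 0.927 for Apoc2. It was 0.61 for Cyp2c70, 1.81 for Ahcy, 2.0 for Ddc, 0.534 for Kynu and -3.36 for Mup20. In stress and cell cycle genes it was 4.44 for Cdkn1a, 5.14 for Nupr1, 1.35 for Atf5, 0.668 for Ddit3, -4.22 for Asns, -2.63 for Mcm6, -1.37 for Wee1 and -1.57 for Rrm2. It was -0.777 for Thra. None of these genes belongs to the shared set, which holds genes of like effect by its definition. Groups of 3 livers were too small for a search for single outlying livers.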

How the results depend on the processing

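The averaged comparison called 919 genes, with 754 of equal sign and 330 in the shared set of genes. DESeq2, its size factors and other filters left these counts within 1.5 times, with 301 to 410 shared genes. The additive model, in which a difference between times adds to the spread, gave 323 called genes, 321 of equal sign and 219 shared. An adjusted p of 0.01 left 353, 281 and 119. With the smaller change at least 0.75 of the larger, 137 genes were shared, and with at least 0.25, 544. Without wild-type replicates 2 and 3 at ZT8, an alternative added after seeing the data, the counts were 494, 388 and 142, and 24 of 53 named shared genes lost their call with none reversed. Leaving out each liver in turn gave 553 to 1348 called, 451 to 1091 of equal sign and 200 to 440 shared genes. The called count moved by more than 1.5 times without replicate 2 of wild type at ZT8 (553), of Rev KO at ZT8 (600), of wild type at ZT20 (555) or of Rev KO at ZT20 (604), and the shared count also without wild-type replicate 2 at ZT8 (200), at ZT20 (205) and Rev KO replicate 2 at ZT8 (216). The cause was not tested.

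Of 92 named called genes, 33 kept their call under every alternative run and 59 lost it under at least 1, with no change of sign. The alternatives include the fit with a single wild-type liver at ZT8, in which a call was harder to reach. Orm3 and Saa2 lost their call in 15 alternatives, and Saa1 and Lipg in 14. The 92 genes, and the 53 shared ones among them, were those chosen by the stated naming rules. Called genes named for other reasons, such as Serpina6, Clec7a, Enho, Cyp2c38, Trib3, Mki67 and Mcm7, were not followed singly through the alternatives. The value of Nr1d1, near 0 and not called, ranged from -0.099 to 0.104 without single livers. With the replicate number as a block, 879 genes were called, 721 had equal signs and 314 were shared, 279 of them in common with the 330, and Nr1d1 was at 0.00375. Livers of the same number were not paired (mean correlation of deviations -0.02, and 3 of 12 livers correlated best with their own number). Depth limits what can be seen below 0.115 to 0.170 CPM.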
